A study of Homo sapiens with 7 samples.

Results

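H3K4me3 was examined at the promoters of 10 nuclear genes of the mitochondrion, namely NRF1, TFAM, SDHA, SDHB, SDHC, SDHD, CYCS, COX4I1, ATP5B and MFN2. H3K4me3 is the trimethylation of lysine 4 of histone H3, a mark of active promoters, and KDM5A is a demethylase that removes it. The genes were chosen by name for their link to KDM5A, and each listed region that overlapped 3 kb either side of a gene's hg19 transcription start was taken, with starts given to 1 kb. This found exactly 1 region for each of the 10 genes, 10 of the 30840 regions in the series. All samples were HCT116 cells, an established human colon cancer line, of the genotype KDM5A-/-, grown with G418, and the labels do not say whether this line is 1 clone. The cells were transfected with mutant KDM5A, with wild-type KDM5A or with an empty vector, and were fixed 24 h later. The mark was read out by sequencing immunoprecipitated chromatin (ChIP-seq), with 1 library for each transfection. The labels name neither the residues changed in the mutant nor the vector's promoter. The values do not show how much KDM5A the cells made, and a smaller share of transfected cells cannot be told apart from a smaller change in each cell.

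Mitochondria are built mostly from proteins encoded in the nucleus, so making the respiratory chain depends on nuclear promoters. NRF1, nuclear respiratory factor 1, activates many of these genes, among them TFAM, whose product packages mitochondrial DNA and takes part in its transcription. Complex II, or succinate dehydrogenase, joins the citric acid cycle to the respiratory chain and is the respiratory complex with no subunit encoded by mitochondrial DNA. KDM5A has been linked to the repression of mitochondrial genes in work on cells lacking the retinoblastoma protein, which is the background for grouping these promoters.

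Promoter sequences, from 250 bases before the gene start to 49 bases after its first base, were present in the RefSeq table of build GRCh38.p14 for 7 of the 10 genes, all except NRF1, SDHC and ATP5B. They were searched on both strands for the motif of NRF1 (GCGCA, then any base, then GCGC), since NRF1 is itself among the genes and its targets are respiratory genes. The motif was found in 3 of the 7 promoters, those of TFAM, SDHA and SDHD, and in 5.78% of the 35116 promoters of that length in the table. These 3 promoters are shown, with the matches in capitals, followed by that of COX4I1, which had no match and carried the most H3K4me3 of the 10 genes.
TFAM (GRCh38.p14, chr10:58385160-58385459, + strand): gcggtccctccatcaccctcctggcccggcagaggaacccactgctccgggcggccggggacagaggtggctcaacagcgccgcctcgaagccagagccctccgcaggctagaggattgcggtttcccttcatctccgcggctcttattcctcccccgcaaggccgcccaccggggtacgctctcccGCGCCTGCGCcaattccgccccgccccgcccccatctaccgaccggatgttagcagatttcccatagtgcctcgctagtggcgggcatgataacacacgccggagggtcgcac
SDHA (GRCh38.p14, chr5:218070-218369, + strand): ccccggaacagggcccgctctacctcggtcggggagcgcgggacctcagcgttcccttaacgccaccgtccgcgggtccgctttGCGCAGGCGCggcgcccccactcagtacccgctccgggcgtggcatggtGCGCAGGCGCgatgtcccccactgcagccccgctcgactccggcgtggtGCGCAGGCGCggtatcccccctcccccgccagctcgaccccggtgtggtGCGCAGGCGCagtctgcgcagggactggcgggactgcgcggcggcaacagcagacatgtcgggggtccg
SDHD (GRCh38.p14, chr11:112086623-112086922, + strand): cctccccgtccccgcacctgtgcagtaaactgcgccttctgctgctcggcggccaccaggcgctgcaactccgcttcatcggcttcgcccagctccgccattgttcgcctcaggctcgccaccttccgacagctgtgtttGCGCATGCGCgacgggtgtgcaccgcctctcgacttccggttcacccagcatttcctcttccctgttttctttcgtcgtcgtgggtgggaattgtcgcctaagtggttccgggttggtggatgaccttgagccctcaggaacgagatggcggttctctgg
COX4I1 (GRCh38.p14, chr16:85799445-85799744, + strand): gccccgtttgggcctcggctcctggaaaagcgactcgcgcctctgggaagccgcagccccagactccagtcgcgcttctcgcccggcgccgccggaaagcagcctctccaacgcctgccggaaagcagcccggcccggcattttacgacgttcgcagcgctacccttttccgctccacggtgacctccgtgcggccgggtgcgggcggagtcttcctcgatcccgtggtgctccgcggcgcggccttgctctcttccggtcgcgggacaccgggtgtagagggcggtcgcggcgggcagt

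The SDHA promoter held 4 matches, which began at −166, −117, −68 and −19, where 0 is the first base of the gene. They stood exactly 49 bases apart, and the stretches of 49 bases that began at −117 and −68 were identical at 37 bases, the most of any pair, with 20 to 30 in the other 5 pairs. Each stretch began with its match, which had the same letters in all 4, so those bases were identical by construction. Only 15 of the 35116 promoters, 0.0427%, held 4 or more matches. The SDHD match was the palindromic form, with T at the free base, at −110 to −101, a form present in 1.24% of promoters. In TFAM the match lay on the minus strand at −63 to −54.

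**Figure D1:**
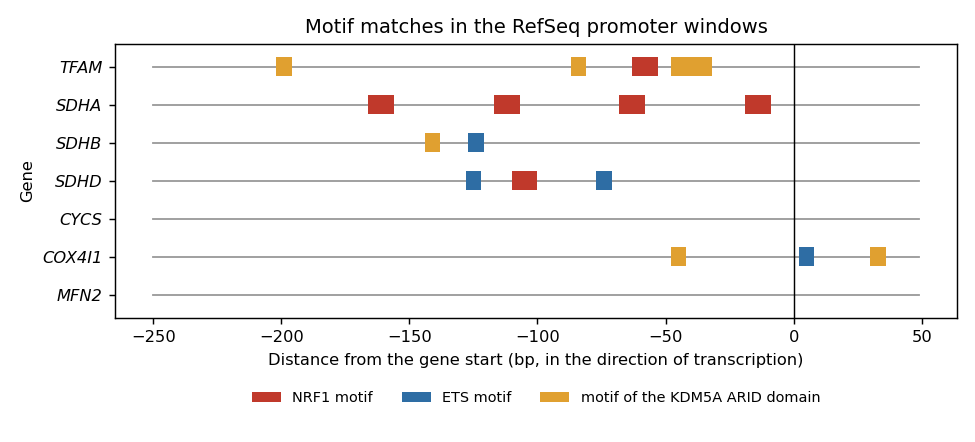
Matches to 3 motifs (coloured boxes) along the RefSeq promoter windows of the 7 genes that have one; the horizontal axis is the distance from the gene start in bp. The 4 evenly spaced NRF1 motifs of SDHA can be seen, and no match to these letters lies in the windows of CYCS and MFN2.

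Another pair of motifs was searched in the same windows. CGGAAG, the core of sites for ETS factors such as GABPA, which also acts on respiratory genes, was present in 3 of 7 promoters (SDHB, SDHD and COX4I1) against 19.5% of all promoters. CCGCCC, the motif recognised by the ARID domain of KDM5A, was present in 3 of 7 (TFAM, SDHB and COX4I1) against 45% of all promoters. TFAM held 5 matches to CCGCCC, 3 of which overlap by a base in 1 run upstream of the start. The 7 promoters had a median GC content of 68.0%, from 62.3% to 74.7%, where the median of all promoters was 58.7%. Base composition therefore stands apart from the median promoter too, and its part in the motif counts was not tested. A match says that these letters are present, not that the factor binds.

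All 10 promoters carried strong H3K4me3. The regions were 2088 to 3627 bp wide and had a mean of 39.5 to 132 RPM over the 3 libraries, where RPM is reads scaled to a library total of 1000000. The median of the 10 was 54.1 RPM, against 4.70 RPM over all 30840 regions and 46.2 RPM over the 10887 regions of 20 RPM or more, called strong regions below. Each region spanned the mark of its start site, beginning between −2197 and −378 bp and ending between 735 and 2160 bp from it. These distances run in chromosome direction, so for genes on the minus strand, such as CYCS and SDHB, negative values lie downstream. Windows of 1 kb and 5 kb found the same 10 regions. Per kb of region the 10 had a median of 20.6 RPM, against 17.4 RPM among strong regions.

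**Figure D2:**
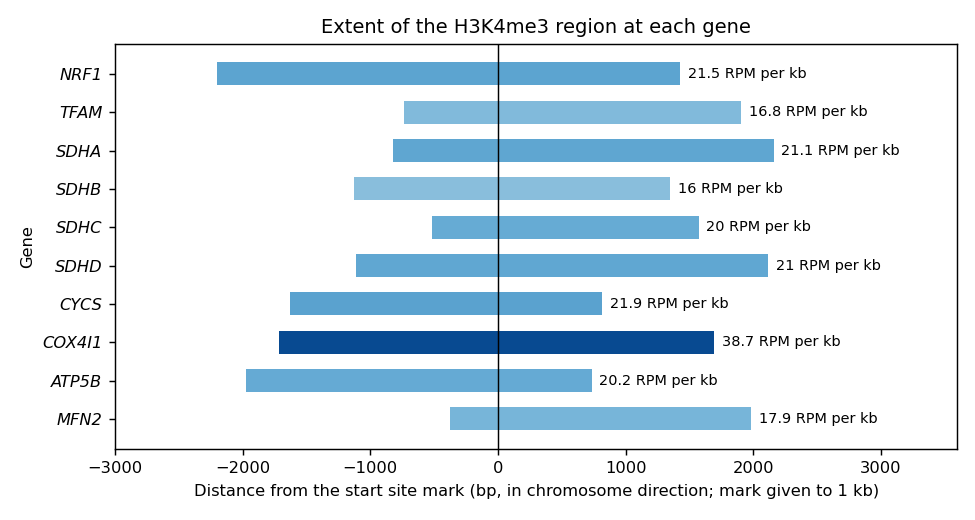
Extent of the H3K4me3 region at each gene in bp from the start site mark, in chromosome direction and not that of transcription. The mean level over 3 libraries in RPM per kb is written beside it (darker blue is higher). COX4I1 stands at 38.7 RPM per kb, and the others lie between 16.0 and 21.9.

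COX4I1, which encodes a subunit of cytochrome c oxidase, had the highest level per kb of the 10 in every library, at 34.8 RPM per kb with mutant KDM5A, 37.9 with wild-type KDM5A and 43.6 with the empty vector. It was 1.63-fold above the next gene with mutant KDM5A (95% interval from counting error 1.47 to 1.81), 1.81-fold with wild-type KDM5A (1.65 to 1.98) and 1.78-fold with the empty vector (1.64 to 1.93). By mean RPM its region ranked 50th of 30840. Below COX4I1 the neighbours in the order did not differ beyond counting error, apart from SDHA at 19.2 and MFN2 at 15.4 RPM per kb with mutant KDM5A (1.25-fold, 1.09 to 1.42). SDHB was the lowest with wild-type KDM5A, at 15.8 RPM per kb, and with the empty vector, at 17.0. With mutant KDM5A it was TFAM, at 15.1. Input libraries were not analysed here, so gene copy number and background are part of these levels. The RefSeq table places COX4I1 head to head with EMC8, which encodes a subunit of a complex in the endoplasmic reticulum membrane, and SDHA head to head with CCDC127. TIMM8B, which encodes a mitochondrial import protein, adjoins the start of SDHD. The marks of such paired genes cannot be separated, and 1 region counts both.

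Each library gave these regions 361 to 1594 reads. Library totals were inferred from the RPM value of 1 read, taking RPM as scaled to all reads of a library. They came to 9906508 reads for mutant KDM5A, 10852411 for wild-type KDM5A and 10713021 for the empty vector, of which 56.9%, 60.7% and 67.0% fell in listed regions. Since each group is 1 library, no test between conditions was possible, and the exact 95% intervals below cover counting error alone. Reads that are PCR copies would make these intervals too narrow. The order of the libraries at each gene is given under the authors' scaling to library totals. Scaling to a median ratio of 1 raised every ratio to the empty vector, by 0.24 on the log2 scale for mutant KDM5A and 0.14 for wild-type KDM5A. Here and below, that median was taken over the regions at or above the median of 4.70 RPM, not over all regions. By construction this scaling places as many of those regions above 1 as below it. It would also remove a change shared by all regions. Counts of genes above 1 after it therefore cannot show whether the mark changed in all regions together.

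**Figure D3:**
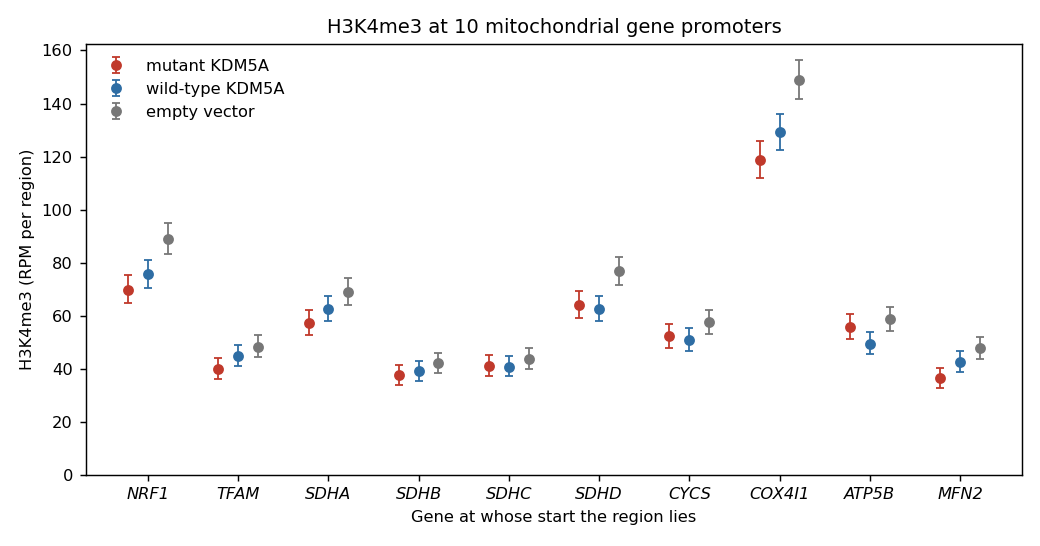
H3K4me3 in RPM per region at the 10 genes with mutant KDM5A (red), wild-type KDM5A (blue) and the empty vector (grey); bars are exact Poisson 95% intervals of 1 library each. Under the authors' scaling the empty vector library is the highest at every gene, with COX4I1 at 119 RPM (mutant KDM5A), 129 RPM (wild-type KDM5A) and 149 RPM (empty vector). Scaling to a median ratio of 1 places about as many regions above 1 as below by construction. After it 4 of 10 ratios to the empty vector are above 1 for each form of KDM5A.

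The regulators come first. NRF1 had 69.9 RPM for mutant KDM5A, 75.7 RPM for wild-type KDM5A and 88.96 RPM for the empty vector. TFAM had 39.97, 44.8 and 48.4 RPM in the same order. Both were lowest with the mutant and highest with the empty vector, although the interval of mutant over wild type included 1 at both. For NRF1 the ratio to the empty vector was 0.785 with mutant KDM5A (0.711 to 0.867) and 0.850 with wild-type KDM5A (0.774 to 0.935). For TFAM the interval lay below 1 with the mutant (0.827, 0.723 to 0.944) and included 1 with the wild type (0.926, 0.817 to 1.05).

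The 4 subunits of complex II had the lower value with the mutant at SDHA and SDHB and with the wild type at SDHC and SDHD, although the interval of mutant over wild type included 1 at all 4. SDHA, the flavoprotein that oxidises succinate, had 57.2 RPM for mutant KDM5A, 62.5 RPM for wild-type KDM5A and 68.98 RPM for the empty vector. SDHB, the iron-sulfur subunit, had 37.5, 39.1 and 42.0 RPM in that order. In both the libraries stood in the same order as at the regulators. SDHC and SDHD encode the membrane anchor. SDHC had 41.1, 40.8 and 43.6 RPM, the smallest spread of the 10 genes between libraries. SDHD had 63.998 RPM for mutant KDM5A, 62.6 RPM for wild-type KDM5A and 76.8 RPM for the empty vector. For SDHC the ratio to the empty vector had an interval that included 1 with mutant KDM5A (0.942, 0.823 to 1.08) and with wild-type KDM5A (0.936, 0.820 to 1.07). For SDHD the ratio to the empty vector was 0.833 with mutant KDM5A (0.750 to 0.925) and 0.814 with wild-type KDM5A (0.735 to 0.903). The wild-type ratio of SDHD was the lowest of the 10 genes. Summed over the 4 subunits the ratio was 0.863 with mutant KDM5A (0.813 to 0.916) and 0.886 with wild-type KDM5A (0.836 to 0.938), against 0.829 (0.794 to 0.865) and 0.872 (0.837 to 0.909) over the other 6 genes. The intervals of complex II and of the other genes overlap in both comparisons.

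Further along the chain, CYCS, which encodes cytochrome c, the electron carrier that also triggers apoptosis when released, had 52.3 RPM for mutant KDM5A, 50.9 RPM for wild-type KDM5A and 57.5 RPM for the empty vector. COX4I1 had 119, 129 and 149 RPM in the same order. ATP5B, the catalytic beta subunit of ATP synthase, listed in the RefSeq table as ATP5F1B, had 55.6, 49.5 and 58.6 RPM. COX4I1 followed the order of the regulators, whereas at CYCS and ATP5B the wild-type library was the lowest. Under the authors' scaling the interval of mutant over wild type included 1 at CYCS (0.910 to 1.16) and ATP5B (0.996 to 1.27). COX4I1, with the most reads, had the narrowest intervals, with ratios to the empty vector of 0.798 for mutant KDM5A (0.739 to 0.861) and 0.868 for wild-type KDM5A (0.808 to 0.933). MFN2, which encodes a GTPase of the outer membrane that fuses mitochondria, had 36.4 RPM for mutant KDM5A, 42.7 RPM for wild-type KDM5A and 47.8 RPM for the empty vector. For mutant KDM5A over the empty vector its ratio, 0.762 (0.665 to 0.874), was the lowest of the 10.

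Wild-type KDM5A against the empty vector asks whether returning the demethylase to knockout cells changed the mark. All 10 genes had less H3K4me3 with wild-type KDM5A under the authors' scaling, with ratios from 0.814 at SDHD to 0.936 at SDHC. Scaling to a median ratio of 1 places about as many regions above 1 as below by construction, and 4 of the 10 then stood above 1. Under the authors' scaling 91.4% of strong regions and 66.7% of all regions were also lower. Summed over the genes, 598 RPM with wild-type KDM5A stood against 681 RPM with the empty vector, a ratio of 0.877 (0.848 to 0.907). None was 1.5-fold lower or higher, a size that 6.53% of all listed regions reached downward and 6.23% upward, most of them below 20 RPM. Among strong regions the shares were 0.0459% in each direction. The interval lay below 1 at 5 genes (NRF1, SDHD, CYCS, COX4I1 and ATP5B), as it did in 40.9% of strong regions and 20.1% of all regions. It lay above 1 at none, beside 0.23% of strong regions and 3.56% of all regions. The median log2 ratio of the 10 was −0.17, beside −0.11 over all regions and −0.15 over strong regions. The median of the 10 lay between the quartiles of the strong regions, −0.22 and −0.078. Of the 10 genes SDHD had the lowest ratio, with 8.70% of strong regions below it. The log2 ratios of the 10 had an SD of 0.067, where counting error (the root mean square of the 10 standard errors) gives 0.083. Among strong regions the SD was 0.16, and among those 2 to 4 kb wide 0.11.

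Mutant KDM5A against the empty vector asks the same of the mutant. The 10 ratios ran from 0.762 at MFN2 to 0.949 at ATP5B under the authors' scaling, where 98.0% of strong regions and 70.5% of all regions were lower too, and 4 of the 10 stood above 1 when scaled to a median ratio of 1. The sum was 573 RPM with mutant KDM5A against 681 RPM with the empty vector, a ratio of 0.840 (0.812 to 0.870). Again no gene was 1.5-fold lower or higher, beside 8.15% and 6.61% of all regions and 0.432% and 0.0459% of strong regions. The interval lay below 1 at 6 genes (NRF1, TFAM, SDHA, SDHD, COX4I1 and MFN2), beside 69% of strong regions and 31.7% of all regions. It lay above 1 at none, beside 0.0827% and 3.49%. The median log2 ratio was −0.26, beside −0.18 over all regions and −0.24 over strong regions. It lay between the quartiles of the strong regions, −0.32 and −0.17. MFN2 had 11.2% of strong regions below it, and ATP5B 92.5%. The log2 ratios of the 10 had an SD of 0.11, against 0.086 from counting error. Strong regions had an SD of 0.17, and those 2 to 4 kb wide 0.12. Both comparisons share the 1 empty vector library, so a high or low value there moves both ratios of a gene together.

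**Figure D4:**
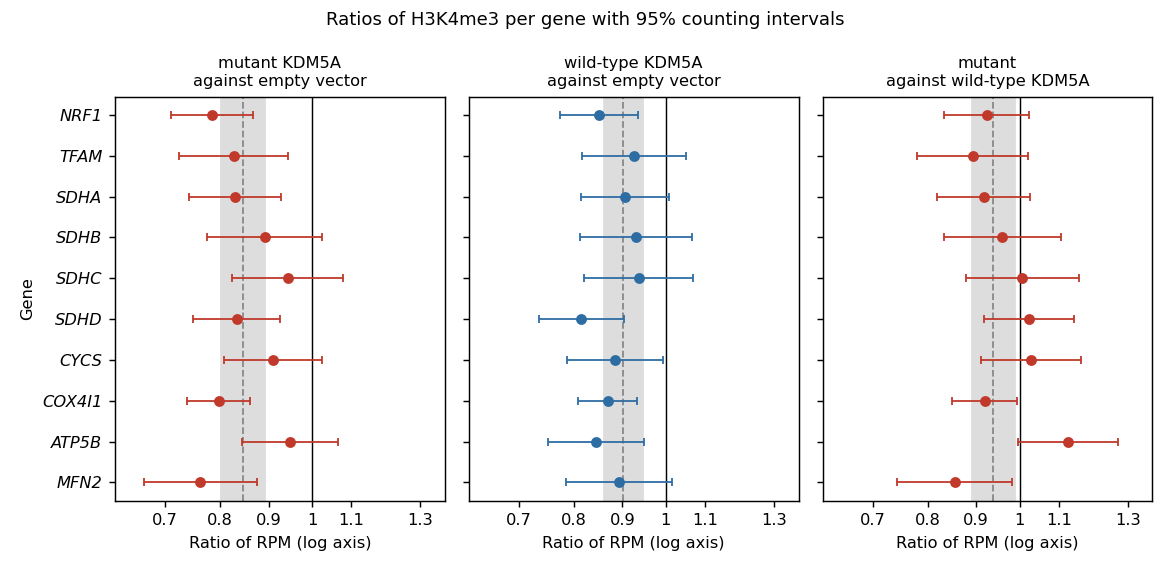
Ratio of RPM (log axis) at each gene with its 95% counting interval, for mutant KDM5A and wild-type KDM5A against the empty vector and for mutant against wild-type KDM5A; the grey band is the interquartile range of the 10887 strong regions and the dashed line their median. Under the authors' scaling all points lie below 1 in the comparisons with the empty vector, as do 98.0% (mutant) and 91.4% (wild type) of strong regions, and ATP5B lies at 1.12 with mutant against wild-type KDM5A. Scaling to a median ratio of 1 places about as many regions above 1 as below by construction. After it 4 of 10 lie above 1 in each comparison with the empty vector.

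Mutant against wild-type KDM5A asks whether the forms left different levels of the mark. Under the authors' scaling 6 genes were lower with the mutant (NRF1, TFAM, SDHA, SDHB, COX4I1 and MFN2) and 4 were higher (SDHC, SDHD, CYCS and ATP5B), while 79.6% of strong regions and 63.7% of all regions were lower. After scaling to a median ratio of 1, which by construction places about as many regions above 1 as below, 5 were lower and 5 higher. The interval lay below 1 at 2 genes, COX4I1 with 0.919 (0.850 to 0.994) and MFN2 with 0.854 (0.742 to 0.982), beside 20.7% of strong regions and 10.8% of all regions. It lay above 1 at none, beside 0.615% of strong regions and 2.89% of all regions. ATP5B had 55.6 RPM with mutant KDM5A against 49.5 RPM with wild-type KDM5A, a ratio of 1.12 (0.996 to 1.27), and 98.8% of strong regions had a lower ratio. Scaled to a median ratio of 1 its ratio was 1.20 (1.06 to 1.35), while those of COX4I1 (0.907 to 1.06) and MFN2 (0.793 to 1.05) then included 1. The share of regions with an interval above 1 after that scaling was not computed. No gene was 1.5-fold lower or higher under the authors' scaling, beside 5.45% and 5.19% of all regions and 0 strong regions in each direction.

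Summed over the 10 genes, 573 RPM with mutant KDM5A stood against 598 RPM with wild-type KDM5A, a ratio of 0.958 (0.925 to 0.993). The interval rests on single genes, since it included 1 without COX4I1 (0.969, 0.931 to 1.01) and without MFN2 (0.966, 0.931 to 1.003). It stayed below 1 without ATP5B (0.943, 0.909 to 0.979). Scaled to a median ratio of 1 the summed ratio over all 10 genes turned to 1.02 (0.987 to 1.06). The median log2 ratio was −0.087, beside −0.077 over all regions and −0.093 over strong regions. Over the 4 subunits of complex II the summed ratio was 0.975 (0.917 to 1.04), and over the regulators NRF1 and TFAM 0.912 (0.841 to 0.989). Both sums are under the authors' scaling, where strong regions had a median change of −6.23%. Singly, NRF1 (0.833 to 1.02) and TFAM (0.780 to 1.02) had intervals that included 1. Scaled to a median ratio of 1 their ratios were 0.986 (0.890 to 1.09) and 0.953 (0.833 to 1.09). The log2 ratios had an SD of 0.12, against 0.088 from counting error and 0.12 among strong regions.

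**Figure D5:**
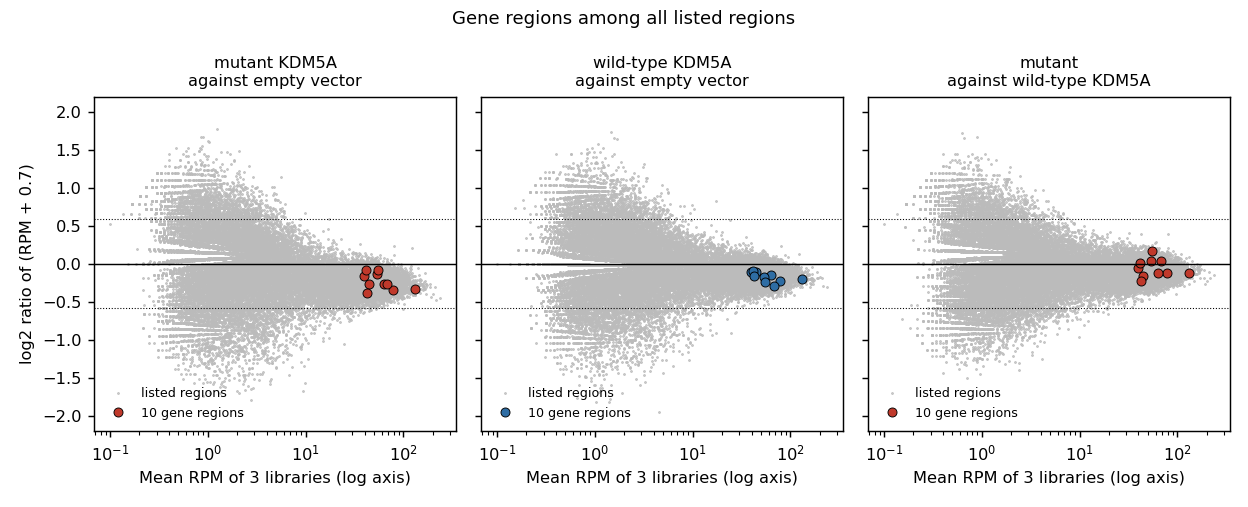
log2 ratio of RPM plus 0.7 against mean RPM (log axis) for all listed regions (grey) and the 10 gene regions (coloured), in the same comparisons; dotted lines mark 1.5-fold. The 10 points lie at 39.5 to 132 RPM inside the narrow cloud of strong regions and inside the 1.5-fold lines; 20 grey regions of each comparison with the empty vector lie beyond the axis.

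Copies elsewhere in the genome could share reads with some promoters where their sequences are alike, and such likeness was not examined here. By name, the RefSeq table lists 45 pseudogenes of CYCS, 7 of SDHD, 5 of SDHC, 4 of SDHA, 2 each of TFAM and COX4I1, and 1 each of SDHB and ATP5B, and none of MFN2 and NRF1. How reads with several matches were treated is not given in the sources used here, so the values of these 8 genes are uncertain in that respect.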

How the data were processed

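H3K4me3 ChIP-seq libraries of HCT116 KDM5A-/- cells were compared, 1 library per transfection. The 3 input libraries and the pooled IgG library were not analysed here. The deposited table gives RPM per region, computed by the authors. Per the submitters' processing notes, the build was hg19 and the tools were deepTools 3.5.6, HOMER, MACS, MACS2 and Bowtie2 2.5.4. Not given in the sources used here are the steps of peak calling and read counting. Per the file headers, the empty vector column reads H3K4me4, taken as a slip for H3K4me3.

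All values were whole multiples of 1 step per library within 0.02 reads, and reads were recovered by dividing by it. A count of 0 would allow 3 reads. Ratios are plain RPM ratios with exact conditional (Clopper-Pearson) 95% intervals, and log2 ratios use a pseudocount of 0.7 RPM, which understates weak changes. Calls were taken over all 30840 regions. No test was made. Interval code was tested on simulated data. The genes, lists and alternatives were chosen with earlier results of these data known. The rule named all 10 genes, and printed promoters with the NRF1 motif and 1 without. The other motifs and the counts of intervals were chosen after the values were seen. RefSeq tables (GRCh38.p14) gave names, neighbours and promoters, never positions of regions. Other genes of the pathway were not analysed here, as no hg19 annotation was used. Computations ran in scipy 1.17.1, pandas 2.3.3 and numpy 2.4.6 under Python 3.11.15, with matplotlib 3.10.9 for plots.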

Additional observations from a re-analysis of the deposited data

How the results depend on the processing

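The summed ratios depended on how the libraries were scaled. In the comparison of wild-type KDM5A with the empty vector, scaling to a median ratio of 1 or to equal sums over regions gave summed ratios of 0.969 and 0.969, median log2 ratios of −0.023 and −0.025, and 1 gene with its interval below 1 in each (SDHD). For mutant KDM5A against the empty vector these settings gave 0.992 and 0.989, −0.024 and −0.028, and 0 genes in each. For mutant against wild-type KDM5A they reversed the direction, with 1.02 and 1.02, 0.0077 and 0.0050, 0 genes below 1 and 1 above (ATP5B). The shares of all or of strong regions with such intervals were not computed under the 2 scalings. Whether these counts of genes differ from the general rate is therefore not known. Scaling to a median ratio of 1 moved log2 ratios by 0.14, 0.24 and 0.095 in the same order of comparisons. Pseudocounts of 0.07 and 3.5 RPM kept each value within its interval and each count within 1.5 times. Windows of 1 and 5 kb, the strongest region per gene and a filter at the median RPM took the same 10 regions. These settings therefore could not change any value. Since no gene was past 1.5-fold, none could be past a 2-fold threshold. Counting intervals and leaving out COX4I1, MFN2 or ATP5B in turn were chosen after seeing the data. Only COX4I1 and MFN2 had an interval below 1 for mutant against wild-type KDM5A, so leaving out either had to lower that count from 2 to 1. No paired analysis was possible because each group has 1 library.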

Other observations

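The regions next to the 10 promoters give a local view of the same libraries, as values without a test. The next listed region lay 6229 to 73441 bp away, and 7 of the 10 promoters had a neighbour of 20 RPM or more on one side. Beside ATP5B, a region 7190 bp away had 62.4 RPM for mutant KDM5A, 68.7 RPM for wild-type KDM5A and 79.2 RPM for the empty vector, ratios to the empty vector of 0.788 and 0.868. The region thus had its lowest value with the mutant, unlike ATP5B itself, which had its lowest value with the wild type. Beside SDHD, a region 9394 bp away had 43.8 RPM for mutant KDM5A, 43.6 RPM for wild-type KDM5A and 52.6 RPM for the empty vector, ratios of 0.832 and 0.828, close to the 0.833 and 0.814 of SDHD. Beside SDHC, 6229 bp away, the ratios were 0.934 for mutant KDM5A and 0.880 for wild-type KDM5A. Beside SDHA they were 0.807 and 0.952, beside SDHB 0.798 and 0.922, and beside MFN2 0.861 and 0.919 in the same order. These 3 neighbours thus had their lowest value with the mutant under the authors' scaling. Under that scaling 79.6% of strong regions were lower with the mutant than with the wild type. Strong neighbours of SDHC, SDHD and TFAM had their lowest value with the wild type, and no intervals were computed for neighbours. Beside TFAM, 48344 bp away, a region of 42.1 RPM for mutant KDM5A, 41.6 RPM for wild-type KDM5A and 42.5 RPM for the empty vector had ratios of 0.991 and 0.978.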
